A study of Homo sapiens with 9 samples.

Results

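The binding sites of ARID1A were compared with those of ARID2 in HepG2, an established human liver cancer cell line. Both proteins are DNA-binding subunits of SWI/SNF, a remodeler that uses ATP to slide or evict nucleosomes, and a given complex holds either the one or the other. A complex that holds ARID1A (or its paralogue ARID1B) is called BAF, and a complex that holds ARID2, together with PBRM1, BRD7 and PHF10, is called PBAF. SNF5 (SMARCB1) is a core subunit of both forms, so its peaks serve as a readout at the sites of either ARID, though not an independent one. Genes for ARID1A and ARID2 are recurrently mutated in liver cancer.

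The members were all peaks of the 2 deposited lists, 12852 for ARID1A and 12995 for ARID2, which together are 25847 of the 55293 peaks in the 4 lists of the series (ARID1A, ARID1B, ARID2 and SNF5). The series holds 9 chromatin immunoprecipitation and sequencing (ChIP-seq) libraries from HepG2 cells. They comprise 2 replicates for each of the 4 subunits and 1 input, and 4 of the libraries belong to ARID1A and ARID2. All cells were unmodified and untreated, were fixed lightly in formaldehyde, and gave chromatin that was cut with micrococcal nuclease before precipitation with an antibody to ARID1A or to ARID2. Each list was called on its 2 replicates merged. The lists therefore carry no replicate error, and the number of reads behind each is unknown here. A difference between the lists cannot be told apart from a difference between the antibodies, and nothing here extends beyond this 1 cell line. Peaks of the 2 lists were called shared where they overlapped by 1 bp or more and unshared otherwise. Each peak carries a deposited class (promoter, exon, intron or distal), a distance to the nearest transcription start site (TSS) and the name of that nearest gene. The TSS can be that of any annotated transcript, so a promoter-class peak can lie inside a gene.

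Of the loci at which each kind of site was widest, at most 1 stretch per class is shown to give the base composition that the results below turn on. Each is the central 150 bases of the overlap or peak on the plus strand of GRCh37 (hg19), outside annotated exons, and capitals mark CpG dinucleotides.
SP5 (shared, promoter), chr2:171572095-171572244: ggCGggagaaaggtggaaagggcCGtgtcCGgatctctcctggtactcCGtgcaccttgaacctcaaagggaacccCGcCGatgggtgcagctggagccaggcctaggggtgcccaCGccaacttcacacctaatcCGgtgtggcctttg
KCTD2 (shared, intron), chr17:73030658-73030807: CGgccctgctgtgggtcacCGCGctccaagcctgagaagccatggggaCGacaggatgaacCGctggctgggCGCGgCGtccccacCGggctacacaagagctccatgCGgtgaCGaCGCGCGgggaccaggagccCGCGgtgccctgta
FTOP1 (shared, distal), chr2:43037734-43037883: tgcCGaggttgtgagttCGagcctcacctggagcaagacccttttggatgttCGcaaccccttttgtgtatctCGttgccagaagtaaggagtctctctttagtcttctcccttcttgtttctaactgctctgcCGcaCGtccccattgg
PGD (ARID1A without ARID2, promoter), chr1:10458864-10459013: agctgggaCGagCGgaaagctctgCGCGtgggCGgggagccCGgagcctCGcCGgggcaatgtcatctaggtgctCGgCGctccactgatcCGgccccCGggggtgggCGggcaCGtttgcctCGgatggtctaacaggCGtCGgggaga
MIR23A (ARID1A without ARID2, distal), chr19:13958166-13958315: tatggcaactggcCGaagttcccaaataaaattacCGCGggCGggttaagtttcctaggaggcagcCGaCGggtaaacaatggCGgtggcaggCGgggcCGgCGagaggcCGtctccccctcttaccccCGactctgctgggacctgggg
SREK1IP1 (ARID2 without ARID1A, promoter), chr5:64064031-64064180: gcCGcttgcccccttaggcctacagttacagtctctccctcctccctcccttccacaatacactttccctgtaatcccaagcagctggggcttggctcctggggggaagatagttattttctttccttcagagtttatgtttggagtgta
YAP1 (ARID2 without ARID1A, intron), chr11:102062979-102063128: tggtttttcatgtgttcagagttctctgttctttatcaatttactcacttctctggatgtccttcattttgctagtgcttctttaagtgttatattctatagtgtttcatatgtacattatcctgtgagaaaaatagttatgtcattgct
LINC00669 (ARID2 without ARID1A, distal), chr18:37381595-37381744: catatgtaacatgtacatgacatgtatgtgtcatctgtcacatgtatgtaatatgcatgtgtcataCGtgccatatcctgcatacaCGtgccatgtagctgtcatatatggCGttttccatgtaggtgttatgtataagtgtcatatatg
The SP5 stretch held 8 CpG dinucleotides and the PGD stretch 17, whereas the SREK1IP1 promoter stretch held 1. The intronic YAP1 stretch, under an ARID2 peak, held 0 CpG at a GC content of 32.0%. These are single examples, and the same measures over all peaks are given further on.

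ARID1A and ARID2 shared a large minority of their sites. Of the ARID1A peaks, 5191 (40.4%, 95% Wilson interval 39.5 to 41.2) overlapped an ARID2 peak, and of the ARID2 peaks 5424 (41.7%, 40.9 to 42.6) overlapped an ARID1A peak. These 40.4% and 41.7% are the background for every subset of peaks below. The overlaps formed 5618 pairs that shared 1.22 Mb, which is 30.9% of the bases under ARID1A and 37.4% of those under ARID2. A pair shared a median of 155 bp, and its midpoints lay a median of 124 bp apart (quartiles 56.0 and 225 bp). The ARID1A peak was the wider of the pair in 62.3% of pairs, and the ARID2 peak lay wholly inside the ARID1A peak in 31.6%. Shared peaks were wider than unshared peaks in both lists, with medians of 356 against 173 bp for ARID1A and of 262 against 155 bp for ARID2. The shared fraction depended strongly on how overlap was defined: it was 14.2% of ARID1A and 14% of ARID2 peaks where the overlap had to cover at least 50% of both peaks, and 64.5% and 68.7% where a gap of at most 1000 bp was allowed.

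Sharing was highest at the start of genes. The ARID1A peak was shared in 44.9% of promoter sites (43.9 to 45.9), 25.3% of intronic sites (23.3 to 27.5) and 31.7% of distal sites (29.5 to 34.0). For ARID2 the shares were 50.3% (49.3 to 51.4), 19.0% (17.5 to 20.7) and 30.0% (27.9 to 32.2). Within 50 bp of a TSS, 66.9% of ARID2 peaks (64.9 to 68.8) and 51.8% of ARID1A peaks (49.9 to 53.6) were shared. From 500 to 1000 bp, still within the promoter class, the shares were 25.7% (23.7 to 27.8) and 31.7% (29.2 to 34.4), so that the order of the 2 lists turned between the start and the promoter edge. In the bins from 1000 to 100000 bp both lists lay between 23.1% and 29.3%. Across the 22 autosomes the shared fraction ranged from 28.9% (chromosome 8) to 51.4% (chromosome 6) of ARID1A peaks. For ARID2 peaks it ranged from 28.1% (chromosome 18) to 55.1% (chromosome 17). SNF5 overlapped 93.5% of shared and 67.1% of unshared ARID1A peaks on chromosome 6, and 87.2% and 59.0% on chromosome 8. On the X chromosome, with 35 ARID1A and 22 ARID2 peaks, 5.71% and 9.09% were shared. The part played by DNA copy number was not tested, either for these shares or for the widest and most peak-dense loci named below.

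**Figure D1:**
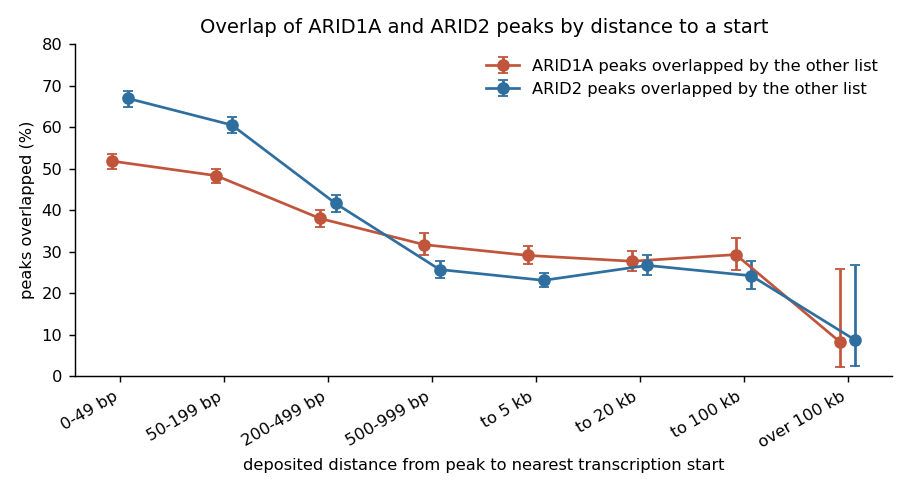
Share of peaks overlapped by the other list (y axis, percent) by deposited distance to the nearest TSS (x axis, bins); points are ARID1A and ARID2 peaks and bars are 95% Wilson intervals. ARID2 peaks fall from 66.9% within 50 bp to 25.7% from 500 to 1000 bp, and ARID1A peaks from 51.8% to 31.7%.

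Shared peaks of both lists sat tightly on the TSS, whereas unshared ARID2 peaks were spread along the promoter and into the gene. Among peaks whose midpoint lay within 1000 bp of a protein-coding start, 51.3% of shared ARID1A peaks (49.7 to 52.8) and 48.0% of shared ARID2 peaks (46.5 to 49.5) lay within 100 bp of it. The share was 41.0% for unshared ARID1A peaks (39.7 to 42.4) and 26.6% for unshared ARID2 peaks (25.2 to 28.0). Of the unshared ARID2 peaks, 55.8% (54.2 to 57.3) lay downstream of the start, with an upper quartile at 391 bp, against 50.3% (48.9 to 51.7) and 163 bp for unshared ARID1A peaks. Over 2647 overlapping promoter pairs the ARID2 midpoint lay a median of -2.50 bp from the ARID1A midpoint (95% interval -9.00 to 3.50, quartiles -99.5 and 85.5 bp, negative values upstream), and it was the downstream midpoint in 49.2% of pairs (47.3 to 51.1). Pairs were chosen for overlapping, which limits how far their midpoints can lie apart.

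**Figure D2:**
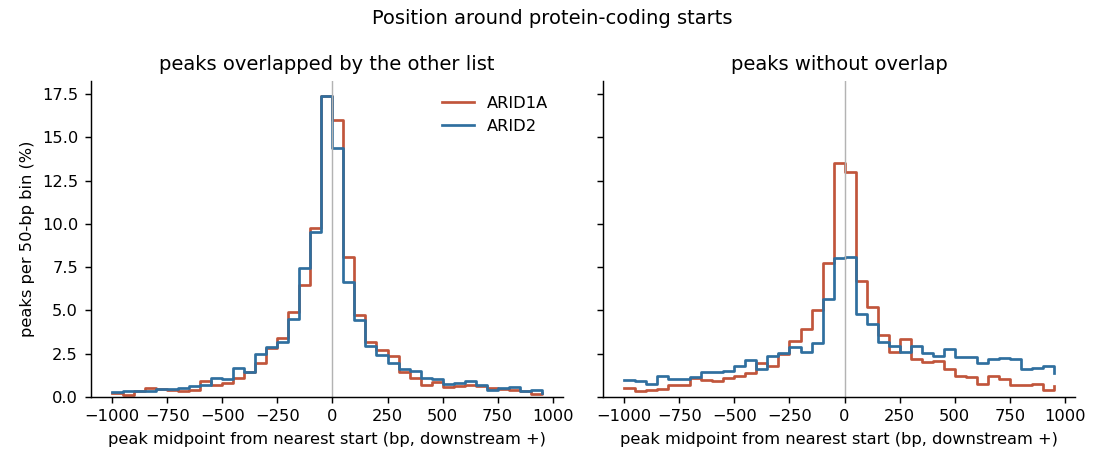
Position of peak midpoints around the nearest protein-coding start (x axis, bp, downstream positive) as percent of peaks per 50-bp bin (y axis), for peaks overlapped by the other list (left) and peaks without overlap (right). The shared profiles of ARID1A and ARID2 nearly coincide, while unshared ARID2 peaks have the lower summit (26.6% within 100 bp against 41.0%) and the longer downstream shoulder.

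Unshared peaks often lay close to a peak of the other subunit. An unshared ARID2 peak lay a median of 1273 bp (95% interval 1167 to 1382) from the nearest ARID1A peak, and an unshared ARID1A peak 3100 bp (2575 to 3688) from the nearest ARID2 peak. At promoters the medians were 678 bp (633 to 729) and 1743 bp (1426 to 2094), and in introns 2636 and 5864 bp. Of all ARID1A peaks, 24.2% did not overlap but lay 1 kb or less from ARID2, 11.1% lay 1 to 10 kb away and 24.4% lay over 10 kb away. For ARID2 peaks the shares were 27.0%, 11.6% and 19.7%. The ARID2 list was also the more clustered, with a median distance of 1400 bp from an ARID2 peak to the next ARID2 peak against 3290 bp within the ARID1A list. When peaks of 1 list at most 1000 bp apart were first joined, the medians for unshared regions rose to 13494 bp from ARID1A to ARID2 and 6896 bp from ARID2 to ARID1A, and 5746 of 13074 joined regions (43.9%) held both subunits.

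The promoter class and the overlap with SNF5 and with ARID1B peaks, which the definition of sharing did not use, were tested between shared and unshared peaks by two-sided Fisher's exact tests, adjusted over the 9 tests by the Benjamini-Hochberg method. Peaks are not replicates, so each test compares the deposited lists as they stand. The promoter class took 80.7% of shared ARID1A peaks (79.6 to 81.8) and 67.1% of unshared ones (66.1 to 68.2), an odds ratio of 2.05 (adjusted p = 5.12e-66 by Fisher's exact test). For ARID2 it took 80.7% (79.7 to 81.8) and 57.1% (56.0 to 58.2), an odds ratio of 3.14 (adjusted p = 1.29e-181 by Fisher's exact test). The unshared peaks also differed from each other: those of ARID1A were the more often at promoters, with an odds ratio of 1.53 (adjusted p = 6.55e-37 by Fisher's exact test). The difference has its counterpart in introns, which held 24.3% of unshared ARID2 peaks and 16.1% of unshared ARID1A peaks.

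The core subunit SNF5 was found at most shared sites. An SNF5 peak overlapped 89.4% of shared ARID1A peaks (88.6 to 90.3) and 58.9% of unshared ones (57.8 to 60.0), an odds ratio of 5.90 (log10 of the adjusted p -336). For ARID2 it overlapped 88.8% (87.9 to 89.6) and 51.7% (50.6 to 52.9), an odds ratio of 7.38 (log10 of the adjusted p -467). Unshared ARID1A peaks met SNF5 more often than unshared ARID2 peaks, with an odds ratio of 1.34 (adjusted p = 3.94e-19 by Fisher's exact test), a gap of 7.21 percentage points. ARID1B, the paralogue of ARID1A, overlapped 33.8% of shared and 12.2% of unshared ARID1A peaks, an odds ratio of 3.69 (adjusted p = 1.19e-189 by Fisher's exact test). It overlapped 31.0% of shared and 8.82% of unshared ARID2 peaks, an odds ratio of 4.65 (adjusted p = 4.35e-230 by Fisher's exact test). Unshared peaks of ARID1A met ARID1B more often than those of ARID2 did, with an odds ratio of 1.43 (adjusted p = 1.76e-11 by Fisher's exact test). The contrast between the 2 unshared sets ran the same way on 22 of 23 chromosomes for promoters, on 23 of 23 for SNF5 and on 18 of 23 for ARID1B.

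Peak width moved with these contrasts, as the medians above show. Within 5 strata of width the odds ratio for SNF5 was 3.52 instead of 5.90 at ARID1A peaks and 5.28 instead of 7.38 at ARID2 peaks, and that for ARID1B at ARID1A peaks was 2.24 instead of 3.69. With gaps of at most 1000 bp counted as shared, that for SNF5 at ARID2 peaks was 4.38. Each stayed past the threshold of 0.05. The readouts are given next by distance to the other subunit, without a test. SNF5 overlapped 60.4% of ARID2 peaks 1 kb or less from ARID1A, 43.1% of those 1 to 10 kb away and 44.9% of those over 10 kb away. At ARID1A peaks the shares were 68.5%, 55.1% and 51.3%. The promoter share was lowest at 1 to 10 kb in both lists, at 34.2% for ARID2 and 52.4% for ARID1A, and higher again beyond 10 kb, at 51.7% and 66.3%. ARID1B overlapped 13.0% of ARID1A and 9.45% of ARID2 peaks that lay 1 kb or less from the other subunit without overlap, and the share stood between 7.70% and 12.4% at larger distances.

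**Figure D3:**
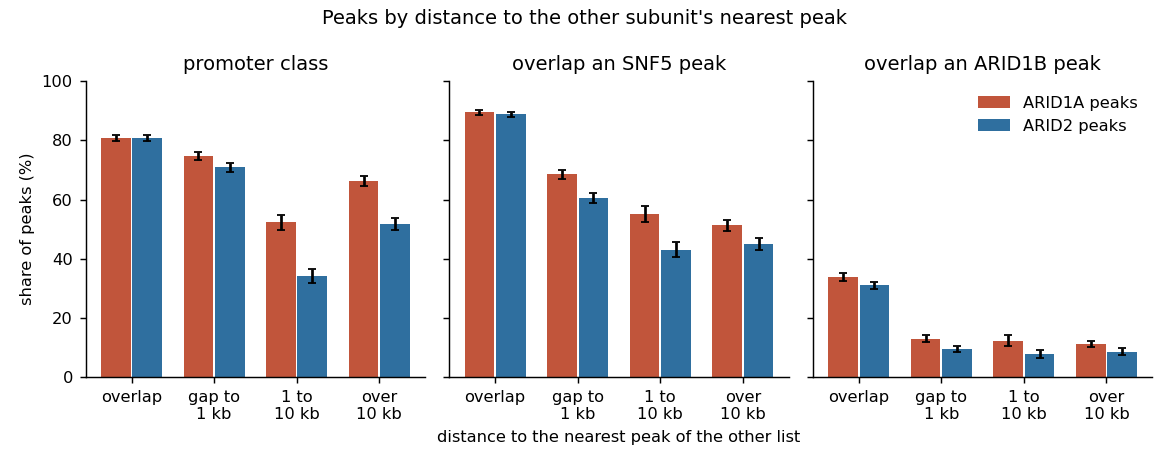
Share of ARID1A and ARID2 peaks (y axis, percent; bars, with 95% Wilson intervals) in the promoter class, overlapping an SNF5 peak and overlapping an ARID1B peak, by distance to the nearest peak of the other list (x axis). Shared peaks are highest in every panel (80.7% promoter in both lists), and the promoter share dips at 1 to 10 kb to 34.2% for ARID2 and 52.4% for ARID1A.

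The 2 unshared sets differed in base composition. In 200-bp windows at the midpoints of promoter peaks, the median GC content was 67.0% at shared and at unshared ARID1A peaks and 66.0% at shared ARID2 peaks, but 55.5% (quartiles 47.0 and 64.5) at unshared ARID2 peaks. The window at the annotated start of all protein-coding genes had a median of 63.5%. The ratio of observed to expected CpG at promoters, a measure of CpG island character, was 0.849 and 0.784 at shared and unshared ARID1A peaks, and 0.827 and 0.607 at shared and unshared ARID2 peaks. Intronic and distal windows showed the same order, with 47.5% GC at unshared ARID2 peaks against 52.5% at unshared ARID1A peaks and 53.0% at shared peaks of both lists. Unshared ARID2 peaks were spread wider around the TSS, but the promoter difference in GC content was present both near the start and farther from it. For peaks within 100 bp of a start the medians were 64.0% for unshared ARID2 and 69.5% for unshared ARID1A, and beyond that, up to 1000 bp, they were 53.5% and 65.0%. No test was run on composition, and the part played by GC bias in the libraries was not tested.

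**Figure D4:**
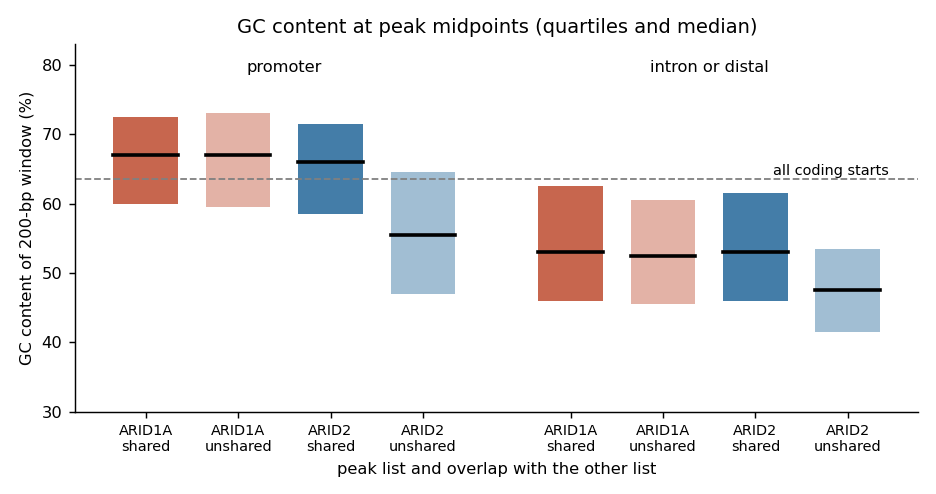
GC content of the 200-bp window at each peak midpoint (y axis, percent) for ARID1A and ARID2 peaks shared with or unshared by the other list (x axis), in promoters and in introns or distal sites; boxes span the quartiles, black lines are medians and the dashed line is the median at all protein-coding gene starts (63.5%). Unshared ARID2 peaks have the lowest median in both settings (55.5% and 47.5%).

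Short motifs were searched on both strands of the same windows. The GC box GGGCGG, bound by SP1 family factors, stood in 54.3% of shared and 50.6% of unshared ARID1A promoter windows (49.3 to 52.0), in 51.7% of shared ARID2 windows and in 28.7% (27.4 to 30.1) of unshared ARID2 windows. It stood in 46.5% of all promoter windows of the 2 lists and in 46.6% of windows at all gene starts. The letters GCGCATGCG, from the motif of NRF1, were found in 4.87% of shared ARID1A promoter windows (4.26 to 5.56) and 5.19% of shared ARID2 promoter windows (4.57 to 5.88), in 1.21% (0.942 to 1.54) and 0.971% (0.719 to 1.31) of unshared ones, in 2.97% of all promoter windows and in 1.90% of windows at gene starts. The contrast was also present among promoter peaks within 100 bp of a start, at 7.35% and 7.81% of shared and 1.98% and 2.77% of unshared ARID1A and ARID2 windows. The CRE palindrome TGACGTCA, bound by CREB and ATF factors, was present in 2.24% and 2.26% of shared promoter windows against 1.19% and 0.532% of unshared ARID1A and ARID2 windows, and in 1.54% of all promoter windows. The ETS motif CCGGAAG stood in 10.8% and 10.3% of shared, 7.99% of unshared ARID1A and 4.85% of unshared ARID2 promoter windows, and in 8.46% of all. CCAAT, bound by NFY, stood in 20.1% of shared and 17.1% of unshared ARID1A promoter windows, in 20.6% of shared and 21.6% of unshared ARID2 promoter windows, and in 19.7% of all. Among intronic and distal windows, TGTTTAC, the core of the FOXA motif of liver enhancers, was present in 7.07% of shared ARID1A and 6.74% of shared ARID2 windows and in 3.97% and 4.74% of unshared ones, with 5.06% of all. The AP-1 motif TGANTCA stood in 8.25% and 8.71% of shared and in 8.45% and 6.88% of unshared intronic and distal windows, with 7.80% of all. These counts describe letters and not binding of the named factors, and GC-rich letters become more frequent with GC content.

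The widest shared promoter sites lay at SP5 and ID1, a Wnt target and a BMP target that both encode transcriptional regulators. At SP5 the overlap covered 2751 bp on chromosome 2, at 171570794 to 171573544. At ID1 it covered 2545 bp on chromosome 20, at 30192673 to 30195217, and the 2 subunits also shared 1112 bp just downstream, at 30195978 to 30197089, which is nearest to MIR3193. The widest shared intronic-class sites were at SOX9, a progenitor transcription factor (1579 bp), and KCTD2 (1563 bp). All 6 widest shared sites overlapped SNF5 and ARID1B peaks. Sites of ARID1A with no ARID2 peak within 10 kb were widest at the promoters of PSMD11, a proteasome lid subunit (1148 bp, chromosome 17, 30771120 to 30772267), and PGD, an enzyme of the pentose phosphate pathway (1130 bp, chromosome 1, 10458374 to 10459503). The nearest ARID2 peaks lay 38371 and 31003 bp away, and both sites overlapped SNF5. The widest such distal peak was nearest to MIR23A (1136 bp), with ARID2 52039 bp away.

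Sites of ARID2 with no ARID1A peak within 10 kb were widest at the promoters of SREK1IP1 (941 bp, chromosome 5, 64063635 to 64064575) and METTL7A (938 bp, chromosome 12, 51318779 to 51319716). Neither overlapped SNF5 or ARID1B, and ARID1A lay 266634 and 99650 bp away. The promoter sites of this kind ranked 3 to 6 by width all overlapped SNF5. In introns the widest were at YAP1, the Hippo pathway coactivator (593 bp, chromosome 11, 102062757 to 102063349, with ARID1A 80040 bp away), and at GPC6, a heparan sulfate proteoglycan (591 bp, chromosome 13, 93880182 to 93880772, with ARID1A 1320628 bp away). Both of these overlapped SNF5. The distal peaks nearest to LINC00669 (1212 bp) and MICD (839 bp) completed the set.

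Shares by nearest gene were higher than by overlap, which follows in part from the coarser unit. A name needs a peak of each list, but these need not overlap. Of 10778 gene names in either list, 5478 (50.8%) had peaks of both, 2970 (27.6%) only of ARID1A and 2330 (21.6%) only of ARID2. The shared names were 64.8% of the 8448 ARID1A names and 70.2% of the 7808 ARID2 names. Of them, 3891 (71.0%) held a pair of overlapping peaks, and at 1473 (26.9%) the 2 subunits had peaks that did not overlap. Most shared names, 4510 (82.3%), had promoter peaks of both subunits. Examples for the next 2 sets were chosen after their values were seen. At 300 names the ARID1A peaks included the promoter and the ARID2 peaks lay elsewhere, as at the ER calcium channel gene ITPR2, with ARID1A 36 bp and ARID2 10939 bp from a TSS, although an intronic ARID1A peak there lay 23 bp from the ARID2 peak. At 174 names it was the reverse, as at ARHGAP18, with ARID2 278 bp and ARID1A 12688 bp from a TSS and a closest approach of 6994 bp. Names of 1 list only were mostly names with 1 peak, 84.7% of those of ARID1A and 82.4% of those of ARID2. All peaks of 74.0% of the ARID1A-only names and 68.4% of the ARID2-only names lay over 10 kb from the other subunit, but 239 and 280 names carried a peak that overlapped a peak assigned to another gene. Restricting each list to its widest 50% left 2825 names with both.

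The names with most peaks in both lists were U6, Metazoa_SRP, Y_RNA and snoU13, names that each cover many RNA gene copies on 12 to 18 chromosomes, and then SLC7A5. SLC7A5, a large neutral amino acid transporter, had 22 ARID1A and 14 ARID2 peaks, of which 8 and 8 were shared and 21 and 13 met SNF5. FOXQ1 (11 and 16 peaks), the nuclear long noncoding RNA genes MALAT1 (14 and 11) and NEAT1 (10 and 13), and ASPSCR1 (11 and 12), chosen after their values were seen, had 23 to 27 peaks in all. These 4 are not simply the next names in rank, as 1 name not listed here had 31 peaks. At NEAT1, peaks at most 1000 bp apart formed a run of 14000 bp that held all 10 and 13.

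Names with most ARID1A peaks and no ARID2 peak were DOCK5 with 7, PLEC with 6 and LTBP3, DOK4 and AC068279.3 with 5 each. PLEC encodes the cytoskeletal linker plectin, and LTBP3 a latent TGF-beta binding protein. Of the 6 PLEC peaks 4 were at promoters, and the nearest ARID2 peak lay 73683 bp away, while at LTBP3 it lay 9323 bp away. None of the peaks at these 5 names overlapped ARID2. On the ARID2 side, the names were AC007246.3 with 7 peaks and NFE2L2, DOCK4, ANO6 and TEAD1 with 5 each. ANO6, a phospholipid scramblase, had 4 promoter peaks within 924 bp of a TSS, and the nearest ARID1A peak lay 508997 bp away. TEAD1, the DNA-binding partner of YAP1, had 3 promoter and 2 intronic peaks, with ARID1A at least 25598 bp away. NFE2L2, which encodes the oxidative stress regulator NRF2, was ARID2-only by name alone: 3 of its 5 peaks overlapped ARID1A peaks that the files assign to another gene, including the one 4 bp from a TSS. The promoter peak of DOCK4, 152 bp from a TSS, likewise overlapped an ARID1A peak of another name, and the closest approach to ARID1A at AC007246.3 was 346 bp.

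Gene lists of liver function and signaling were read against all 20149 protein-coding names of the annotation, of which 22.3% had peaks of both subunits, 11.0% of ARID1A only and 7.46% of ARID2 only. The lists are small, so their counts are descriptions without a test. Hepatocyte transcription factors had ARID2 at 18 of 21 members: 14 had both, 4 had ARID2 only and 0 had ARID1A only. Of the 18 members with a peak, 77.8% had both, 22.2% ARID2 only and 0% ARID1A only. For all protein-coding names with a peak these shares were 54.7%, 18.3% and 27.0%. The shared members included HNF4A, FOXA1, FOXA2 and CEBPB. At HNF4A, a nuclear receptor central to hepatocyte identity, an ARID2 peak 333 bp from a TSS was among those shared, whereas the widest ARID2 peak there (649 bp, 29 bp from a TSS, chromosome 20, 42984086 to 42984734) lay 38619 bp from ARID1A. The ARID2-only members were CEBPA, ONECUT1, ONECUT2 and NR1H4, the bile acid receptor. At CEBPA the ARID2 peak lay 11 bp from an ARID1A peak assigned to another name, whereas at ONECUT1, ONECUT2 and NR1H4 the nearest ARID1A peak lay 498196, 186733 and 208583 bp away.

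Genes of secreted liver proteins split further. Of 20, 10 had both, among them APOB with 6 ARID1A and 8 ARID2 peaks, AHSG and RBP4. With ARID2 only stood 4, namely ALB (albumin), APOA1, APOA2 and HP (haptoglobin), and with ARID1A only 1, SERPINA1 (alpha-1 antitrypsin). That is 26.7% and 6.67% of the members with a peak, against 18.3% and 27.0% of all protein-coding names with a peak. Neither ALB peak lay at the start of the gene. The one of the promoter class, at chromosome 4, 74283095 to 74283228, was inside the gene (74262831 to 74287199, plus strand) and nearer its 3′ end, 559 bp from the deposited TSS and 13506 bp from ARID1A, and the other was distal, 21768 bp from a TSS. The HP peak lay 53 bp from a TSS and 38726 bp from ARID1A, and the APOA1 peak 87 bp from a TSS but only 1723 bp from ARID1A. Conversely, 4 ARID1A peaks lay at SERPINA1, of which 2 were promoter peaks at 193 and 682 bp, 3 met SNF5, and none came closer than 84926 bp to ARID2. AFP, the fetal albumin relative, carried 4 ARID1A and 5 ARID2 peaks without any overlap, and the closest pair lay 478 bp apart. A list of muscle and neuron genes, as a check of the cell type, had peaks at 1 of 16 members, an intronic ARID1A peak at RBFOX3, and of 39 HOX genes 3 had ARID1A and 0 had ARID2 peaks.

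**Figure D5:**
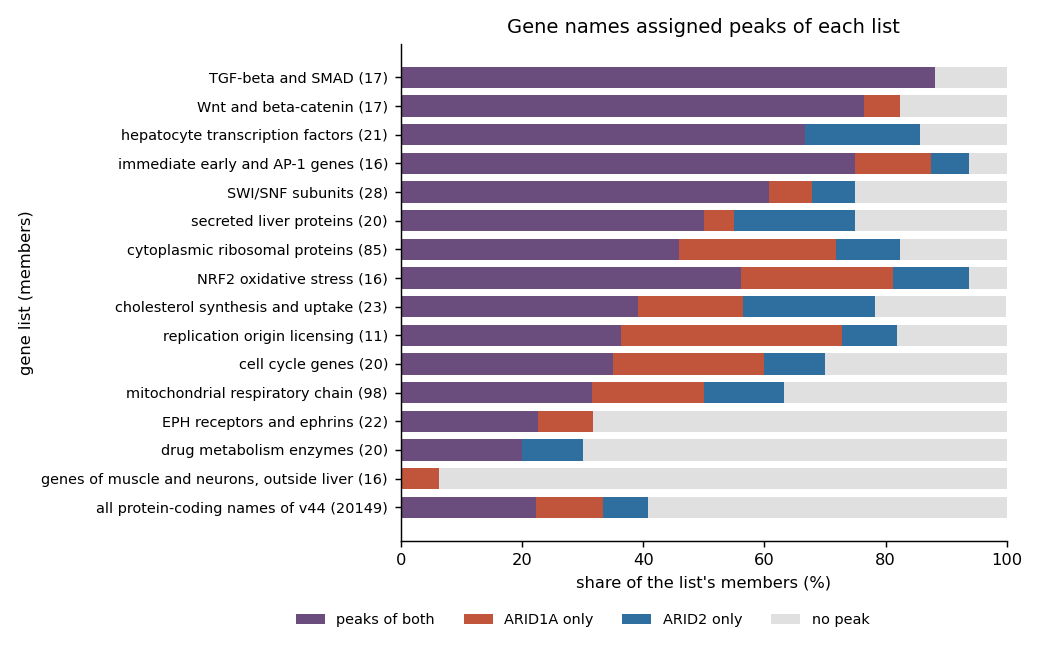
Members of each gene list (rows, number of members in parentheses) by the peaks assigned to them, as percent of the list (x axis), with all protein-coding names in the bottom row. TGF-beta and Wnt genes are almost all bound by both subunits or neither. Hepatocyte transcription factors have ARID2-only members (4 of 21) and no ARID1A-only ones. ARID2-only members are 22.2% of those with a peak, against 18.3% of all protein-coding names with a peak. Ribosomal protein and licensing genes have more ARID1A-only than ARID2-only members (22 against 9 and 4 against 1), as all protein-coding names do (2210 against 1503).

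Genes of the TGF-beta and Wnt pathways mostly carried both subunits. Of members with a peak, 100% in the TGF-beta list and 92.9% in the Wnt list had both. The share was 54.7% of all protein-coding names with a peak, and no test was run. In the TGF-beta list 15 of 17 had both and 0 had 1 subunit only, from the receptor gene TGFBR2 and the signal transducers SMAD2, SMAD3 and SMAD4 to the inhibitors SMAD6, SMAD7, SKI and SKIL and the targets ID1, ID2 and ID3. SMAD7 had 8 ARID1A and 5 ARID2 peaks, and its nearest promoter peaks lay 1 bp (ARID2) and 69 bp (ARID1A) from a TSS. In the Wnt list 13 of 17 had both, including CTNNB1, which encodes beta-catenin, and the feedback inhibitors AXIN2 (6 ARID1A and 8 ARID2 peaks), RNF43 and ZNRF3 (4 and 10 peaks). The exception was TCF7, with 3 ARID1A peaks, the nearest of them 52202 bp from ARID2. Immediate early and AP-1 genes were alike, with both subunits at 12 of 16, among them FOS, FOSB, JUN, JUNB and ATF3.

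Metabolic and stress genes were divided, as all protein-coding names with a peak were. Of 16 genes of the NRF2 oxidative stress response, 9 had both, including NQO1, HMOX1 and GCLC. Members with ARID1A only included KEAP1, which encodes the inhibitor of NRF2, and PGD and TKT of the pentose phosphate pathway. The 3 KEAP1 peaks lay 64 to 398 bp from a TSS and at least 62327 bp from ARID2. With ARID2 only stood NFE2L2, in the sense given above, and SLC7A11, the cystine transporter, whose peak lay 840632 bp from ARID1A. Of 23 genes of cholesterol synthesis and uptake, 9 had both, such as SREBF1, SREBF2 and HMGCS1, 4 had ARID1A only (LSS, IDI1, CYP51A1 and TM7SF2) and 5 had ARID2 only, among them SQLE, PMVK and HSD17B7. The sides were not all separate in space. The CYP51A1 peak overlapped an ARID2 peak assigned to another name, and the IDI1 peak lay 106 bp from ARID2. At LSS the nearest ARID2 peak lay 95137 bp away. Of NRF2 list members with a peak, 26.7% had ARID1A only and 13.3% ARID2 only, and of cholesterol list members 22.2% and 27.8%. Among all protein-coding names with a peak the shares were 27.0% and 18.3%. Only the ARID2-only share of the cholesterol list, 5 members, lay above that background, and no test was run.

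Lists of replication, growth and respiration genes are given beside all protein-coding names with a peak, of which 54.7% had both subunits, 27.0% ARID1A only and 18.3% ARID2 only, so that an excess of ARID1A-only names is the background. Of 11 genes of replication origin licensing, 4 had both, 4 had ARID1A only (MCM3, MCM4 and MCM5, which encode subunits of the replicative helicase, and MCM10) and 1 had ARID2 only (ORC1). The MCM5 and MCM10 peaks lay 10 and 4 bp from a TSS and 19216 and 59079 bp from ARID2. The 1 MCM3 peak, by contrast, was distal, 16334 bp from a TSS, and did not overlap SNF5. Of 20 cell cycle genes, 7 had both, among them the cyclin-dependent kinase inhibitor genes CDKN1A (5 ARID1A and 7 ARID2 peaks), CDKN1B and CDKN2C, and 5 had ARID1A only against 2 with ARID2 only. CCND3 and CDK4, which encode partners in the G1 kinase, were on the ARID1A side at 19447 and 19651 bp from ARID2, and E2F1 on the ARID2 side at 10491 bp from ARID1A. Of 85 ribosomal protein genes, 39 (45.9%) had both, 22 (25.9%) ARID1A only and 9 (10.6%) ARID2 only, which is 31.4% ARID1A only and 12.9% ARID2 only of the members with a peak, and 17 and 8 of the last 2 sets had no peak of the other subunit within 1 kb. Of 98 respiratory chain genes, 31 had both, 18 ARID1A only and 13 ARID2 only, and the 1-subunit shares of those with a peak, 29.0% and 21.0%, were near the background.

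The genes of the complex itself were mostly bound by both subunits. Both were at 81.0% of members with a peak, against 54.7% of all protein-coding names with a peak, without a test. Of 28 SWI/SNF subunit genes, 17 had both, and among these the ARID1A, ARID2, PBRM1, PHF10, SMARCA4, SMARCB1 and SMARCE1 genes held overlapping peaks. At PBRM1 the ARID1A peak of 236 bp lay 42 bp and the ARID2 peak of 453 bp 66 bp from a TSS. SMARCD1 and BICRA, the latter a subunit of the noncanonical form of the complex, had ARID1A only, and DPF1 and SS18 had ARID2 only. DPF1 and SS18 proteins are known from BAF rather than PBAF complexes. Among EPH receptors and ephrins, 5 of 22 (22.7%) had both, near the 22.3% of all protein-coding names. In the lists as analysed here 2 had ARID1A only, namely EPHA2 and EFNA4. These lists may lack peaks, so this is not evidence that ARID2 is absent from either gene.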

How the data were processed

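Chromatin from HepG2 cells was precipitated with antibodies to ARID1A, ARID2, ARID1B or SNF5, in 2 replicates each, with 1 input. Per the study's methods, the authors used Bowtie2 and the hg19 genome for alignment of single-end reads, removed duplicates, merged the 2 replicates, called broad peaks with MACS2, merged neighbouring peaks, removed blacklisted regions and assigned genes and classes from Gencode V16. Merging replicates removes replicate error. The shortest gap within a list was 213 bp for ARID1A and 209 bp for ARID2. Deposited start, end and distance values are in bp. The SNF5 list carries a deposited peak score per interval, made by the authors' peak caller, which was not used for any result, and the ARID lists carry no score. Starts are given 1-based.

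Overlaps, distances and 95% Wilson or order-statistic intervals, which cover counting error only, were computed in Python 3 with SciPy and statsmodels after a check on simulated data. The 9 Fisher's exact tests were two-sided. Named genes were the 5 names with most peaks on each side, the 2 widest loci per class and side, and members of fixed gene lists. The members and lists were chosen with earlier results of these data known. Starts, gene types and older symbols came from Gencode v44 lifted to GRCh37 and from RefSeq synonyms, which placed 84.2% of the 10778 names; for the rest, 15.8%, a list member can appear without a peak. Of peaks with a matched name, 98.4% (ARID1A) and 98.3% (ARID2) lay near that gene. The deposited chromatin state column was not used: on chromosome 1 a promoter state stood on 90.7% of promoter-class and 51.2% of other ARID2 peaks, but elsewhere on 73.5% and 71.0%, and for ARID1A on 93.5% and 45.2% against 78.1% and 65.2%. The alternatives tried are given in the closing section. Some list members and 1 region are not reported here.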

Additional observations from a re-analysis of the deposited data

How the results depend on the processing

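All 9 tests kept their direction and their side of the threshold in each of their 60 alternatives, which were 3 other definitions of overlap, strata of peak width, autosomes only, 1 peak per gene name and 2 other distances for the promoter class. Odds ratios moved by over 1.5 times in 3 of them, from 7.38 to 4.38 for SNF5 at ARID2 peaks with gaps up to 1000 bp, and from 5.90 to 3.52 (SNF5) and 3.69 to 2.24 (ARID1B) at ARID1A peaks within strata of width. The shared fraction did not hold its value. Of ARID1A and ARID2 peaks, 14.2% and 14% were shared with an overlap of at least 50% of both peaks, 64.5% and 68.7% where gaps up to 1000 bp counted, 51.6% and 52.1% with midpoints at most 500 bp apart, 47.0% and 48.7% after joining peaks at most 1000 bp apart, and 43.4% and 44.1% among the widest 50% of each list. These alternatives change by construction how much counts as shared. Names with both subunits numbered 2825 among the widest 50%, where fewer peaks enter. The median distance from unshared peaks became 13494 bp (ARID1A to ARID2) and 6896 bp (ARID2 to ARID1A) with peaks joined first, and 1568 bp for ARID2 from midpoint to midpoint. The other 9 alternatives of these values moved them by less than their intervals or, for the name count, by less than 1.5 times. No paired analysis was possible because each list was called on its 2 replicates merged, and for the same reason no replicate could be left out. Depth per list is unknown, so a missing peak is not evidence that a subunit is absent from a site.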

Other observations

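In lists of RNA genes, ARID2-only names took a larger share than among protein-coding genes. Of 120 microRNA gene names with a peak, 50 had both subunits, 24 ARID1A only and 46 (38.3%) ARID2 only, and 19 and 32 of the last 2 sets had no peak of the other subunit within 1 kb. Of 73 small nuclear and nucleolar RNA names, 43 had both, 11 (15.1%) ARID1A only and 19 (26.0%) ARID2 only. Of 169 antisense and LINC RNA names 68 had both, 53 (31.4%) ARID1A only and 48 (28.4%) ARID2 only. In that list the ARID1A-only share was the larger, and it too lay above that of protein-coding names. Of 241 long noncoding RNA names with a peak, 29.9% had ARID1A only and 28.2% ARID2 only. Among the 8200 protein-coding names with a peak, 54.7% had both, 27.0% ARID1A only and 18.3% ARID2 only. These names are counted only where a peak exists, and no test was run.

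Of 508 genes named ZNF, 102 (20.1%) had both, 67 (13.2%) ARID1A only and 49 (9.65%) ARID2 only. Of 373 solute carrier genes, 89 (23.9%) had both, 43 (11.5%) ARID1A only and 28 (7.51%) ARID2 only. These shares were near those of all protein-coding names, at 22.3%, 11.0% and 7.46%. Histone genes of the replication-dependent clusters were mostly bound by both when bound, at 32 of 38 (84.2%), with 3 on each side. Of all protein-coding names with a peak, 54.7% had both. Olfactory receptor genes, which liver cells do not express, had peaks at 3 of 415. Of 20 drug metabolism genes, 4 had both, 0 had ARID1A only, and CYP2E1 and UGT2B7 had ARID2 only, with ARID1A 125750 and 185302 bp away. A run of 14 ARID1A and 2 ARID2 peaks lay over 5S ribosomal RNA genes on chromosome 1 (228750462 to 228759768), where repeated copies make the placement of reads uncertain.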
